A study of Homo sapiens with 6 samples.

Results

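The kinetochore is the protein machine that ties each chromosome to the mitotic spindle. It is built on centromeric chromatin, where the histone H3 variant CENP-A replaces ordinary H3. The constitutive centromere-associated network sits on CENP-A through the cell cycle and, in mitosis, recruits the MIS12, KNL1 and NDC80 complexes, of which NDC80 binds microtubules. The spindle checkpoint kinases and their partners load onto KNL1 and hold the cell in metaphase until every kinetochore is attached. In tumours of the liver, as in other tumours, transcripts of these genes follow the number of dividing cells.

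The 36 genes described here encode centromere proteins, kinetochore complexes and spindle checkpoint proteins. They were taken by symbol from 60564 Ensembl rows of the count table, each symbol matched 1 row, and all 36 passed the filter on low counts that left 22230 genes. They were divided by complex into 8 groups. Expression was measured by RNA sequencing in 6 libraries of HepG2, an established line from a human liver tumour, labelled wild type. In 3 libraries the cells came from cultures treated for 72 h with formononetin, an isoflavone that bears a methoxy group and is made by legumes, at 625 (the unit is written μm). The 3 control libraries are labelled with the culture medium DMEM only, with no solvent control and no time, so an effect of solvent or of culture time cannot be told apart from that of the compound. All cells were grown in DMEM with fetal calf serum and antibiotics. Levels are CPM, counts relative to the TMM-scaled library total, for replicates 1, 2 and 3 in that order, and changes are log2 fold changes of formononetin against control ± SE.

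Counts on Ensembl rows ran from 30848848 to 36243606 in control and from 37465148 to 45682722 in formononetin libraries, and single counts of the 36 genes ran from 45 (CENPH) to 5565 (CENPF). Exons of 3 of the genes overlap those of another gene on the same strand and those of 12 on the other strand, which the counts may not separate. All 10 hepatocyte and hepatoma markers looked up had counts in these libraries. Their summed level was 48658 to 50167 CPM in control and 40497 to 41674 CPM in formononetin libraries. APOB made up the largest share of that sum. Of the 10, 7 fell (edgeR quasi-likelihood test, adjusted p under 0.05), where 8.71% of all genes tested fell and 12.0% rose. HNF4A, a transcription factor of hepatocytes, rose (0.44 ± 0.09, adjusted p = 0.012), and APOA1 and KRT8 were not called. Of markers of other cells, PTPRC, CD3E, COL3A1, DCN and LUM had no counts in any library. The summed level of 6 leukocyte markers, nearly all of it from LYZ, was 1198 to 1291 CPM in control and 971 to 1011 CPM in formononetin libraries. That of 5 fibroblast and stellate cell markers, mainly PDGFRB, was 12.9 to 15.1 against 3.82 to 4.59 CPM, and that of 4 endothelial markers, mainly PECAM1, 22.1 to 25.6 against 23.96 to 28.2 CPM. The part of these differences in the results was not tested.

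Most of the genes had more transcript in the formononetin libraries. Of the 36, 21 rose and 1 fell (edgeR quasi-likelihood test, adjusted p under 0.05), where 12.0% of all genes tested rose and 8.71% fell. Their median log2 fold change was 0.55, against -0.01 for all genes tested. The rises were modest: among the 21, the log2 fold change ran from 0.23 (BUB3) to 1.002 (CENPU). All 3 formononetin libraries lay above all 3 control libraries for 24 genes (20.8% of all genes) and below them for 2 genes, CENPO and CENPF (18.7% of all genes). The mean log2 CPM over the 36 genes was 3.80, 3.63 and 3.55 in the control libraries and 4.15, 4.18 and 4.15 in the formononetin libraries. Control replicate 1 was the highest control for 27 of the 36 genes. In bulk RNA, more cells with a transcript and more transcript per cell cannot be told apart.

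**Figure D1:**
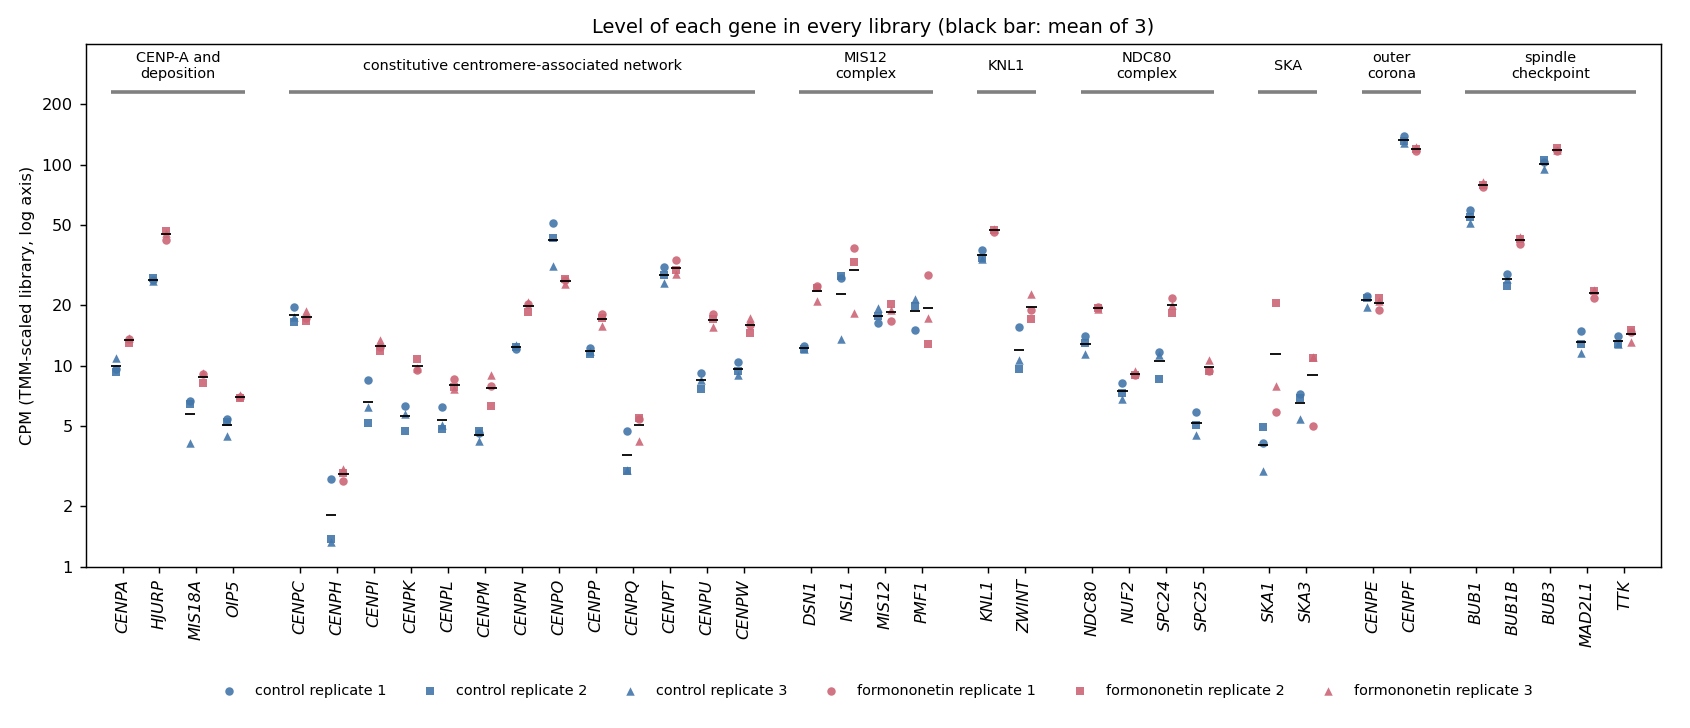
Level of each of the 36 genes in every library, in CPM on a log axis, with the genes ordered by complex. Points are single libraries (blue for control, red for formononetin, shape for the replicate number) and black bars are means of 3. The red points lie above all blue points for 24 genes and below them for CENPO and CENPF.

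The proximal promoters of these genes are rich in short motifs known from cell cycle genes. The cell cycle genes homology region (CHR) is bound by the DREAM and MuvB complexes, CCAAT by NF-Y, and E2F sites by E2F factors. RefSeq starts on GRCh38.p14 gave a window of 250 bases before to 50 bases after the start for 29 of the 36 genes. A gene with several starts was counted as holding a motif where any of its windows did, and both strands were searched. The CHR letters TTTGAA or TTCGAA were in a window of 17 of the 29 genes (58.6%), against 17.5% of 15842 protein-coding genes and 19.5% of all 27305 genes with a window. CCAAT was in 18 of 29 (62.1%), against 42.1% of coding genes and 39.7% of all. The E2F letters TTTGGCGC, TTTCGCGC or TTTCCCGC were in 4 of 29 (13.8%), against 4.53% and 3.30%. CHR and CCAAT stood together in 11 of 29 (37.9%), against 8.95% of coding genes. TTCGAA reads the same on both strands, and no motif holds another.

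CHR and CCAAT letters were in windows of genes that rose and of genes that did not pass the test. For 9 of the 17 genes with CHR letters, every match began at or after the start and so lay in the transcribed part (BUB1, OIP5, CENPN, CENPW, MAD2L1, NUF2, SKA1, CENPF and CENPO). CHR letters were found for 11 of 17 raised genes with a window and for 5 of 11 that were not called, and CCAAT for 13 of 17 and 5 of 11. CENPO, the gene that fell, had CHR and no CCAAT. The 6 stretches below hold the 150 bases before the RefSeq start, 5′ to 3′ on the gene's strand, with every complete motif match in capitals (ATTGG and TTCAAA are CCAAT and TTTGAA on the other strand). They show raised genes of differing content (CENPU with CCAAT and, farther up and not printed, an E2F match, HJURP with CCAAT and CHR, BUB1B with CHR and DSN1 with none) and a pair of genes that did not pass the test, CENPC with both motifs and CENPE with none.
CENPU, chr4:184734097-184734246, minus strand: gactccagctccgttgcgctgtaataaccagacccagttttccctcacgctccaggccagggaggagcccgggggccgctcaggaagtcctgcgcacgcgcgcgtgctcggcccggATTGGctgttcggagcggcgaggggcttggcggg
HJURP, chr2:233854536-233854685, minus strand: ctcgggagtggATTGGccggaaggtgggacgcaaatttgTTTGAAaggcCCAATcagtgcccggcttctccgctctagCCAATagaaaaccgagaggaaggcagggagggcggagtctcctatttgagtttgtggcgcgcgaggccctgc
BUB1B, chr15:40160919-40161068, plus strand: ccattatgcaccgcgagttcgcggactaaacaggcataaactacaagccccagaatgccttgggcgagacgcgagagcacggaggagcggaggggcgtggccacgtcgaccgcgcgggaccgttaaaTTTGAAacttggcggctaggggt
DSN1, chr20:36773764-36773913, minus strand: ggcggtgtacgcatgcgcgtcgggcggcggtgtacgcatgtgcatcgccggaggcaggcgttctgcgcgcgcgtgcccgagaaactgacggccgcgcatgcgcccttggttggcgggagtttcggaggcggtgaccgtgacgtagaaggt
CENPC, chr4:67545504-67545653, minus strand: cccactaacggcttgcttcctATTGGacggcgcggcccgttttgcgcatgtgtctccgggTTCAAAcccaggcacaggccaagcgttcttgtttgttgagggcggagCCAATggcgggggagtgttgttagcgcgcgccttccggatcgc
CENPE, chr4:103198344-103198493, minus strand: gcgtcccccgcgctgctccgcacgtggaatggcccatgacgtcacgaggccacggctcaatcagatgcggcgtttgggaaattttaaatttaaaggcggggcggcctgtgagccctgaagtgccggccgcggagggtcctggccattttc
A match is a description of the letters and not evidence of binding. Only the exact letters named above were searched, so a window with no match may still hold variants of these motifs. The start used in these cells was not measured.

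Among the genes of CENP-A itself and its deposition, 3 of 4 rose. HJURP, the chaperone that places CENP-A into chromatin (ENSG00000123485, chromosome 2, 233833416 to 233854566, GRCh38), was at 26.7, 27.3 and 26.5 CPM in control and 42.5, 46.9 and 45.9 CPM in formononetin libraries. The groups were far apart relative to their spread, with 26.8 ± 0.384 against 45.1 ± 2.29 CPM (SD, n = 3 each) and a log2 fold change of 0.75 ± 0.06 (adjusted p = 0.000423). This call held in all 16 alternative settings. CENPA, the centromeric histone (ENSG00000115163, chromosome 2, 26764289 to 26801067), was at 9.61, 9.36 and 10.9 CPM in control libraries and 13.6, 13.03 and 13.8 CPM with formononetin, which did not overlap (0.44 ± 0.09, adjusted p = 0.0167). Leaving out control 2, formononetin 1 or formononetin 3 ended the call (highest adjusted p 0.0625). CENPA shares 138 exon bases on the same strand with SLC35F6, whose level ran from 21.6 to 85.3 CPM and was high and low in both groups. The sum of both was not called (0.78 ± 0.40, adjusted p = 0.222). OIP5, which encodes the MIS18-beta subunit of the complex that licenses the centromere for new CENP-A, was at 5.43, 5.25 and 4.45 CPM in control and 6.95, 6.92 and 7.15 CPM with formononetin (0.47 ± 0.12, adjusted p = 0.0272). That call held without control replicate 1 but in no other fit that left out a library (adjusted p up to 0.0871). OIP5-AS1 overlaps it by 470 exon bases on the other strand, at 20.4 to 88.9 CPM with low libraries in both groups. MIS18A, the other subunit, was not called (adjusted p = 0.0559), with 6.68, 6.48 and 4.13 CPM in control and 9.08, 8.21 and 9.21 CPM in formononetin libraries. Its groups did not overlap, and control replicate 3 stood below the other controls. It was called by DESeq2 (adjusted p = 0.0113), by limma voom (adjusted p = 0.0412) and with the library total as scaling (adjusted p = 0.0447).

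Of 13 genes of the constitutive centromere-associated network, 8 rose, 1 fell and 4 did not pass the test (median 0.68). The network is made of subcomplexes, and CENP-C, which binds the CENP-A nucleosome and reaches to MIS12, stands on its own. CENPC was at 19.5, 16.5 and 17.5 CPM in control and 17.2, 16.7 and 18.6 CPM in formononetin libraries. These overlapped fully (-0.03 ± 0.09, adjusted p = 0.88), and the sign changed with library totals as the scaling and when control 1 or formononetin 2 was left out.

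In the CENP-H, I, K and M subcomplex, 3 of 4 genes rose. CENPI was at 8.49, 5.17 and 6.22 CPM in control and 12.4, 11.8 and 13.4 CPM with formononetin (0.92 ± 0.18, adjusted p = 0.0114). CENPK was at 6.32, 4.75 and 5.75 CPM in control and 9.53, 10.7 and 9.69 CPM with formononetin (0.83 ± 0.13, adjusted p = 0.00496). For both, the highest control library stayed below the lowest formononetin library. CENPM was at 4.64, 4.72 and 4.22 and 7.96, 6.29 and 8.94 CPM (0.77 ± 0.15, adjusted p = 0.0118), with formononetin replicate 2 nearest to the controls. CENPH, the least abundant of the 36 genes per length, was at 2.73, 1.37 and 1.33 and 2.65, 2.94 and 3.05 CPM and was not called (0.68 ± 0.28, adjusted p = 0.142). Control replicate 1 overlapped the formononetin libraries, and without it the gene was called (1.09, adjusted p = 0.00899). The partners CENP-L and CENP-N, of which CENP-N contacts the CENP-A nucleosome, both rose. CENPN was at 12.2, 12.4 and 12.6 CPM in control and 20.3, 18.5 and 20.9 CPM in formononetin libraries, a change far beyond the spread (0.68 ± 0.08, adjusted p = 0.00134). CENPL changed by 0.57 ± 0.13 (adjusted p = 0.0202), but its call held only without control replicate 1 among the fits that left out a library (adjusted p up to 0.0703). CENPN overlaps CMC2 by 457 exon bases on the other strand, and CMC2 was not called.

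The CENP-O, P, Q and U subcomplex moved in both directions. CENPU, whose protein anchors the mitotic kinase PLK1 at the kinetochore (ENSG00000151725, chromosome 4, 184694618 to 184734133), had the largest change of the called genes. It was at 9.21, 7.63 and 8.53 CPM in control and 18.1, 17.02 and 15.6 CPM in formononetin libraries, 8.45 ± 0.795 against 16.9 ± 1.26 CPM (SD, n = 3 each), a log2 fold change of 1.002 ± 0.11 (adjusted p = 0.001). The lowest formononetin library was well above the highest control. CENPP was at 12.3, 11.5 and 11.9 and 18.1, 17.3 and 15.7 CPM (0.52 ± 0.09, adjusted p = 0.00581), again without overlap. IPPK, on the other strand, shares 3719 exon bases with CENPP, 38.0% of the CENPP exon bases. It was not called (0.36 ± 0.11, adjusted p = 0.051), and the counts may not separate these 2 genes. CENPQ was at 4.70, 2.99 and 3.04 and 5.43, 5.51 and 4.22 CPM and was not called (0.50 ± 0.21, adjusted p = 0.148). Control replicate 1 lay above formononetin replicate 3, and without control replicate 1 CENPQ was called (0.74, adjusted p = 0.0345).

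CENPO (ENSG00000138092, chromosome 2, 24793136 to 24822376) was the gene that fell. It was at 51.4, 43.2 and 31.5 CPM in control and 26.7, 27.1 and 25.6 CPM in formononetin libraries, 42.03 ± 9.96 against 26.5 ± 0.748 CPM (SD, n = 3 each), with a log2 fold change of -0.67 ± 0.16 (adjusted p = 0.0257). The control libraries were spread widely and the formononetin libraries were close together, with no overlap. Leaving out any library other than control 3 ended the call (highest adjusted p 0.0776), and over all alternatives the log2 fold change ran from -0.84 to -0.50. Per kb of exon, CENPO stood at 2.98, 3.03 and 1.98 times CENPU in the control libraries and at 0.787, 0.852 and 0.878 times in the formononetin libraries. Against CENPP the same ratio was 7.43, 6.68 and 4.71 in control and 2.62, 2.77 and 2.89 in formononetin libraries. The order of CENPO and CENPU per kb of exon thus differed between the groups in all libraries. It rests on the annotated exon lengths, and in CPM CENPO was above CENPU in every library. These ratios were chosen after the values were seen and were not tested. Exons of CENPO overlap ADCY3 by 1488 bases and PTRHD1 by 247 bases on the other strand. ADCY3, at 1.74 to 2.32 CPM in control and 3.09 to 4.31 CPM in formononetin libraries, rose (0.93 ± 0.19, adjusted p = 0.0131), and PTRHD1 was not called (-0.10 ± 0.09, adjusted p = 0.487).

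CENP-T and CENP-W are histone-fold partners that form the second path from the network to NDC80. CENPW was at 10.4, 9.44 and 8.97 CPM in control and 16.03, 14.6 and 17.2 CPM with formononetin (0.73 ± 0.10, adjusted p = 0.00288), with no overlap. CENPT was at 30.9, 28.2 and 25.9 and 33.6, 29.9 and 28.6 CPM, which overlapped, and was not called (0.12 ± 0.09, adjusted p = 0.436). Per kb of annotated exon, CENPW had the second highest mean of the 36 genes in control (12.1 ± 0.915 CPM per kb), close to BUB3. In formononetin libraries it had the highest (20.04 ± 1.65), while CENPT was at 5.12 ± 0.452 in control and 5.54 ± 0.475 CPM per kb with formononetin.

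**Figure D2:**
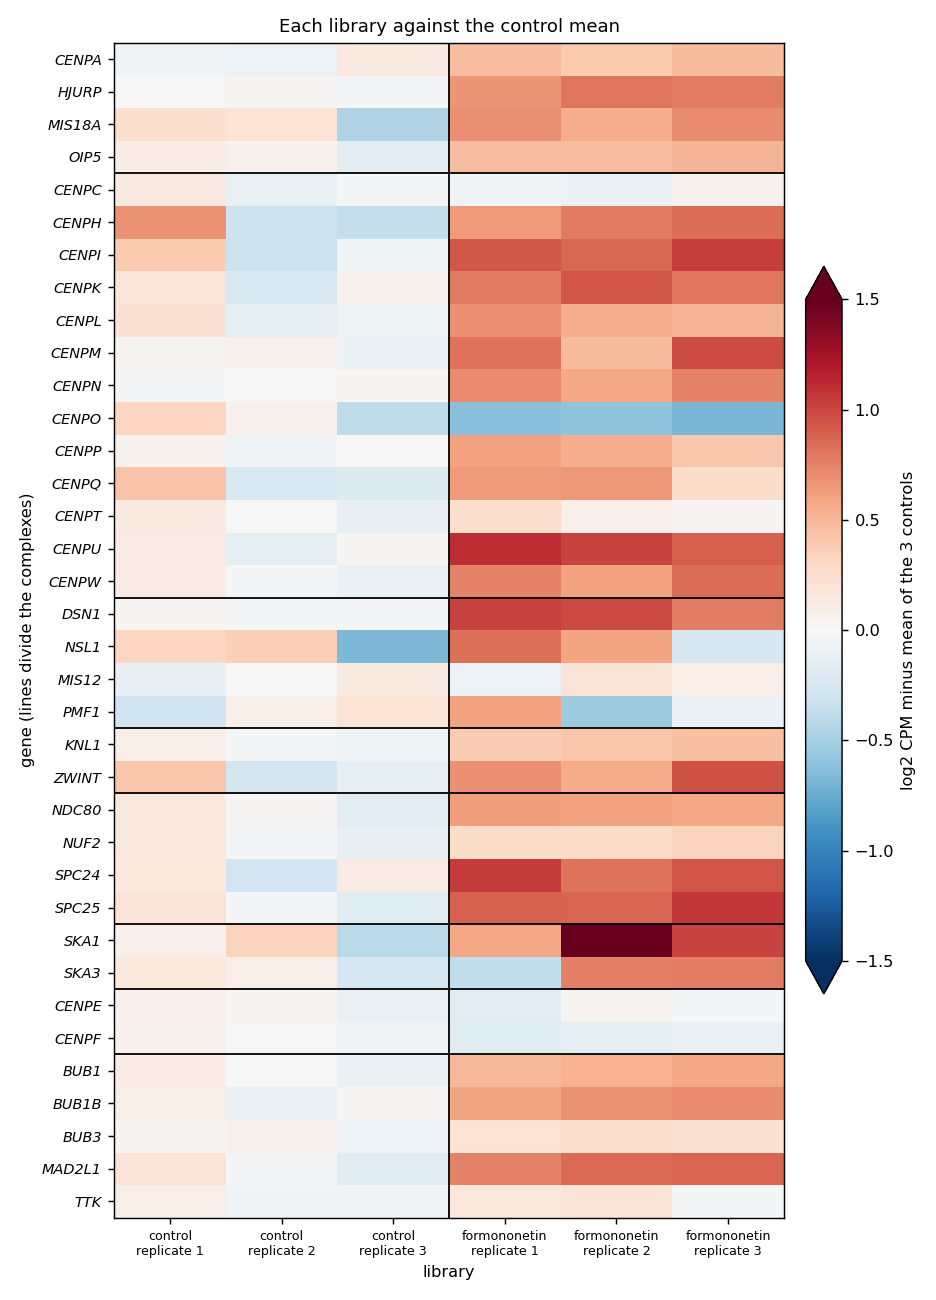
Level of each gene (rows, ordered by complex) in each library (columns), as log2 CPM minus the mean of the 3 control libraries. Red is higher and blue lower than the control mean. CENPO is blue in all formononetin libraries among red partners, SKA1 is darkest in formononetin replicate 2, and NSL1 is blue in replicate 3 of both groups.

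Of the 4 MIS12 complex genes, which link the inner to the outer kinetochore, only DSN1 passed the test. DSN1, whose protein is the target by which Aurora B promotes assembly (ENSG00000149636, chromosome 20, 36751791 to 36773818), was at 12.6, 12.2 and 12.2 CPM in control and 24.9, 24.4 and 20.9 CPM in formononetin libraries. The control libraries were nearly identical and every formononetin library was above all of them (0.93 ± 0.09, adjusted p = 0.000712). MIS12 was at 16.3, 17.6 and 19.5 and 16.6, 20.3 and 18.96 CPM, with partial overlap (0.07 ± 0.10, adjusted p = 0.716). NSL1 was at 27.2, 27.8 and 13.6 and 38.5, 32.9 and 18.2 CPM (0.38 ± 0.34, adjusted p = 0.483). Replicate 3 was the lowest library of both groups. PMF1 was at 15.1, 19.8 and 21.5 and 28.3, 12.8 and 17.3 CPM (0.05 ± 0.28, adjusted p = 0.922), with formononetin libraries both above and below all controls. PMF1 shares 587 exon bases with the readthrough gene PMF1-BGLAP on the same strand, and their sum was at 22.4, 28.3 and 25.5 CPM in control and 35.95, 20.8 and 24.5 CPM with formononetin (0.09 ± 0.20, adjusted p = 0.792). The 4 subunits act in equal numbers in the protein complex. Per kb of exon, DSN1 stood at 0.889, 0.798 and 0.721 times MIS12 in control and at 1.73, 1.39 and 1.27 times in formononetin libraries, a ratio chosen after the values were seen.

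Both genes of the KNL1 complex, the platform of the checkpoint, rose. KNL1 was at 37.7, 34.5 and 33.9 CPM in control and 46.1, 47.2 and 48.2 CPM with formononetin (0.41 ± 0.06, adjusted p = 0.00393). ZWINT, its partner that brings the RZZ complex, was at 15.6, 9.64 and 10.7 and 18.9, 17.2 and 22.7 CPM (0.71 ± 0.19, adjusted p = 0.039). Control replicate 1 was close to the lowest formononetin library. The ZWINT call ended when any library other than control 1 was left out (highest adjusted p 0.123), under upper quartile scaling and with no filter on low counts (adjusted p = 0.0568 in each).

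In the NDC80 complex, the microtubule coupler, 3 of 4 genes rose (median 0.76), and none of these calls was lost in any alternative. SPC24 was at 11.7, 8.55 and 11.4 CPM in control and 21.6, 18.4 and 20.05 CPM with formononetin (0.93 ± 0.13, adjusted p = 0.00347). SPC25, its partner at the end that faces the centromere, was at 5.89, 5.08 and 4.51 and 9.45, 9.41 and 10.7 CPM (0.94 ± 0.13, adjusted p = 0.00297). The values of both were clear of overlap. NDC80, which touches the microtubule, was at 14.1, 12.96 and 11.4 and 19.7, 19.4 and 19.1 CPM (0.60 ± 0.09, adjusted p = 0.00471), with formononetin libraries within 1 CPM of each other. NUF2, its partner, was at 8.23, 7.35 and 6.84 and 8.98, 8.99 and 9.36 CPM and was not called (0.29 ± 0.11, adjusted p = 0.101), although the groups did not overlap. A difference between the changes of the SPC24 and SPC25 pair and the NDC80 and NUF2 pair was not tested.

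Neither SKA gene, whose proteins strengthen the grip of NDC80 on microtubules, passed the test. SKA1 (ENSG00000154839, chromosome 18, 50374995 to 50394173) was at 4.15, 4.95 and 2.98 CPM in control and 5.91, 20.6 and 7.95 CPM with formononetin (1.51 ± 0.47, adjusted p = 0.06). Formononetin replicate 2 stood far above the others, and without it the log2 fold change was 0.79 (adjusted p = 0.0846). Without formononetin replicate 1 it was 1.82 and called (adjusted p = 0.0329), and DESeq2 also called the gene (adjusted p = 0.0424). SKA3 was at 7.27, 6.93 and 5.43 and 5.04, 10.9 and 11.02 CPM (0.46 ± 0.29, adjusted p = 0.327). Formononetin replicate 1 lay below all controls, and without it SKA3 was called (0.74, adjusted p = 0.0243). In both genes formononetin replicate 1 was thus the lowest of its group.

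Neither gene of the outer corona passed the test. CENPF, a large coiled-coil protein of the corona that binds dynein regulators (ENSG00000117724, chromosome 1, 214603195 to 214664588), was at 139, 132 and 128 CPM in control and 117, 121 and 123 CPM in formononetin libraries. Every formononetin library was slightly below every control, and the change was not called (-0.14 ± 0.05, adjusted p = 0.0725). It was called lower under upper quartile scaling (-0.22, adjusted p = 0.0155) and with a filter of 1 CPM in 3 libraries (-0.16, adjusted p = 0.0391). CENPE, the kinesin that carries chromosomes to the spindle equator, was at 22.3, 21.8 and 19.6 and 18.9, 21.8 and 20.97 CPM, which overlapped (-0.05 ± 0.09, adjusted p = 0.756). CENPF was among the 3 most abundant of the 36 genes per length in control, at 11.4 ± 0.475 CPM per kb.

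Of 5 spindle checkpoint genes 4 rose (median 0.53). MAD2L1, the inhibitor that becomes part of the mitotic checkpoint complex (ENSG00000164109, chromosome 4, 120055608 to 120067074), was at 14.9, 12.9 and 11.5 CPM in control and 21.8, 23.6 and 23.8 CPM with formononetin (0.82 ± 0.11, adjusted p = 0.00227). BUB1B, which encodes the checkpoint protein BubR1, was at 28.6, 24.9 and 27.2 and 40.6, 42.8 and 43.8 CPM (0.66 ± 0.07, adjusted p = 0.00111). BUB1, the kinase that marks centromeric histone H2A, was at 59.5, 54.98 and 51.5 and 77.9, 78.99 and 82.4 CPM (0.53 ± 0.06, adjusted p = 0.00168). For all of these the groups were separate and the calls held in all alternatives. BUB3, the adaptor that carries both to KNL1, had the smallest rise of the called genes, from 103, 106 and 95.05 to 117, 122 and 118 CPM (0.23 ± 0.05, adjusted p = 0.0229). Per kb of annotated exon, BUB3 had the highest control mean of the 36 genes (12.2 ± 0.695 CPM per kb). CENPW was within the spread (12.1 ± 0.915) and was higher in control replicate 1 (13.1 against 12.4). The BUB3 call ended under upper quartile scaling (0.15, adjusted p = 0.0856) and when control 3 or any formononetin library was left out (highest adjusted p 0.0772). TTK, the kinase MPS1 that starts the signal, was at 14.05, 12.9 and 12.8 and 14.8, 15.1 and 13.1 CPM, with overlap, and was not called (0.11 ± 0.09, adjusted p = 0.445).

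**Figure D3:**
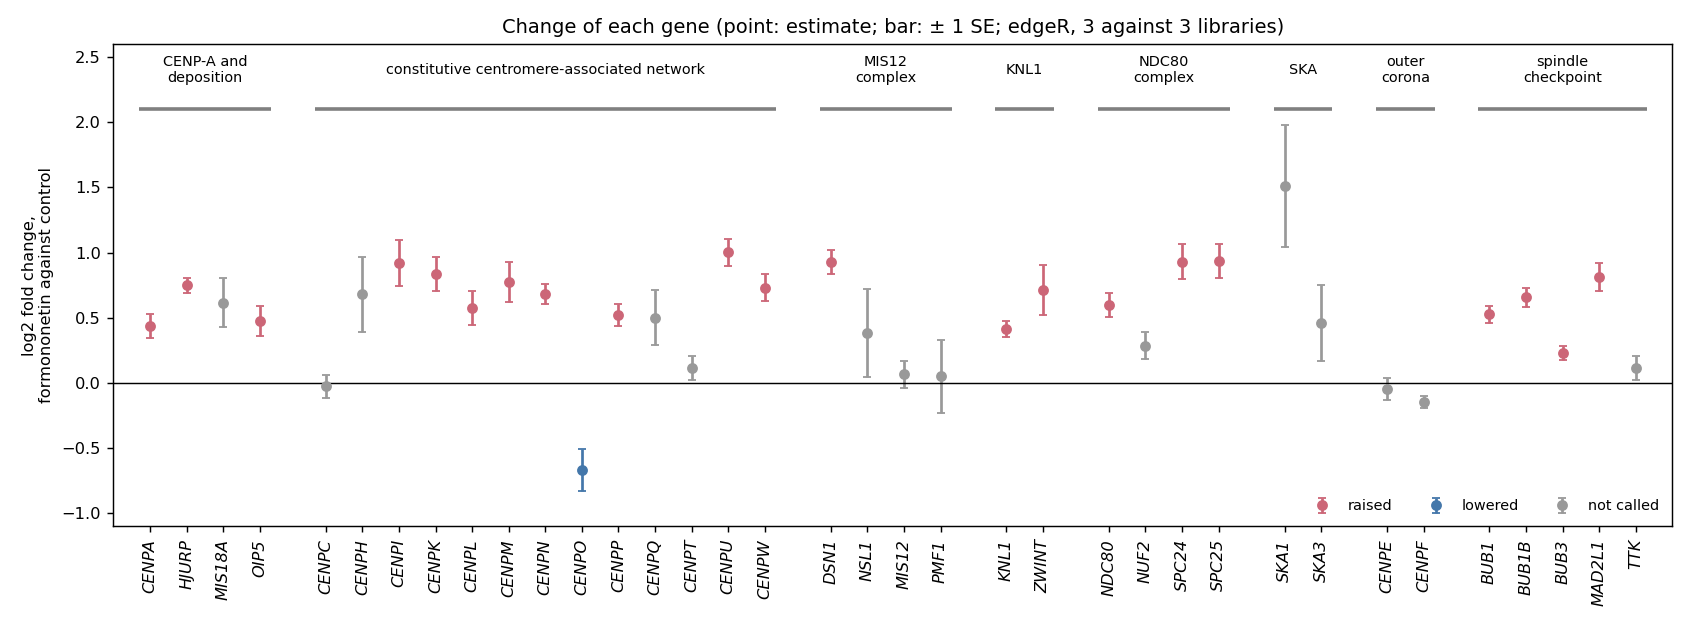
Log2 fold change of each gene, formononetin against control, by complex. Points are estimates from 3 against 3 libraries, bars are ± 1 SE, red marks genes raised and blue genes lowered at an adjusted p under 0.05, and grey marks genes not called. Of the 36 genes 21 are red and CENPO alone is blue.

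By complex, the mean log2 CPM of the members differed between formononetin and control by 0.69 for the NDC80 complex, 0.58 for CENP-A and its deposition, 0.57 for the KNL1 complex, 0.52 for the constitutive network, 0.47 for the spindle checkpoint, 0.34 for the MIS12 complex and -0.10 for CENP-E and CENP-F. The SDs over libraries were 0.14 and 0.05 for NDC80 and 0.10 and 0.23 for MIS12, in control and formononetin. For the SKA complex the difference was 0.85, with an SD of 0.29 in control and 0.73 in formononetin libraries, so that it was about as large as the spread. Without formononetin replicate 2 the SKA difference was 0.495, and without formononetin replicate 1 the MIS12 difference was 0.213. That of CENP-E and CENP-F was -0.0622 without control replicate 1, -0.0615 without formononetin replicate 1 and -0.0532 with library totals as the scaling. These values describe the members and were not tested.

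A chosen list of other centromere and kinetochore genes, which need not be complete, had a smaller median. Of its 29 genes, all outside the 36, 14 rose (median 0.35), where 12.0% of all genes tested rose. The median depends on which genes were put on the list. Among those with enough counts the largest rise was in KNTC1, the ROD subunit of the RZZ complex that brings dynein and MAD1 to the kinetochore, from 52.2 ± 5.47 to 89.1 ± 2.38 CPM (0.77 ± 0.08, adjusted p = 0.000877). The other RZZ genes, named after their values were seen, also rose, with ZWILCH at 0.71 ± 0.10 (adjusted p = 0.00344) and ZW10 at 0.40 ± 0.06 (adjusted p = 0.00291). In the chromosomal passenger complex, likewise named afterwards, BIRC5 (0.48 ± 0.12) and CDCA8 (0.42 ± 0.10) rose, while AURKB (0.37 ± 0.13, adjusted p = 0.0812) and INCENP (0.08 ± 0.09, adjusted p = 0.588) were not called. Of the other network subunits, again named outside the rule, CENPS rose (0.83 ± 0.21, adjusted p = 0.0326), and CENPX (-0.15 ± 0.10, adjusted p = 0.346) and ITGB3BP, which encodes CENP-R (0.35 ± 0.12, adjusted p = 0.0807), were not called.

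Set beside other cell cycle lists of the same fit, the median of the 36 genes (0.55) lay between those of the replication and the mitosis lists. Over all genes tested, 12.0% rose and 8.71% fell. Of 16 replication licensing and helicase genes 15 rose (median 1.03), led by the helicase loader CDC6 (1.48 ± 0.10). Of 14 mitotic kinases, cyclins and drivers 6 rose (median 0.36), led by the transcription factor MYBL2 (1.02 ± 0.11). Of 15 spindle motor and cytokinesis genes 10 rose and 1 fell (median 0.41), with ANLN, a cortical scaffold of the cleavage furrow, raised most (0.57 ± 0.14) and ECT2, the activator of RhoA at the furrow, lowered (-0.29 ± 0.06). Differences between the lists were not tested.

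**Figure D4:**
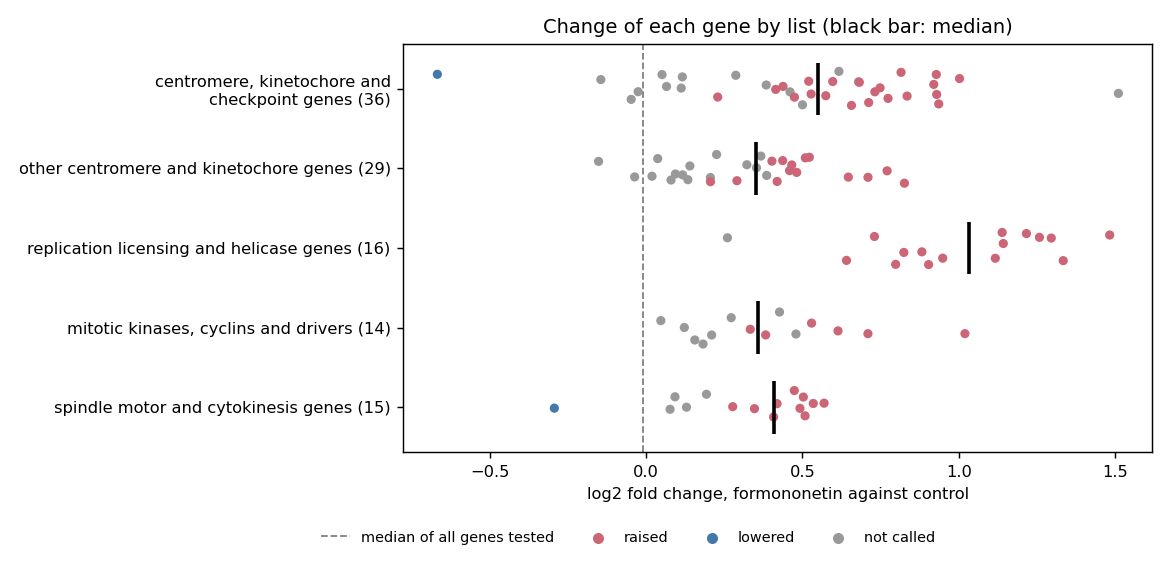
Log2 fold change of each gene by list, with the number of genes in parentheses. Points are genes (red raised, blue lowered, grey not called), black bars are medians and the dashed line is the median of all genes tested. The median is 0.55 for the centromere, kinetochore and checkpoint genes, 0.35 for other centromere and kinetochore genes, 1.03 for replication genes, 0.36 for mitotic kinases and cyclins and 0.41 for spindle motor and cytokinesis genes.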

How the data were processed

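The authors deposited raw counts for every gene, made from libraries of a stranded mRNA kit, per the labels' protocols. GRCh38, STAR 2.5.3a and StringTie 1.3.1c are named in the submitters' processing notes. The counter, its strand setting and its annotation were not given in the sources used here, which leaves genes with overlapping exons uncertain. Of 62729 rows, 2165 name no gene (3.82 to 5.62% of counts per library) and were left out. Exon lengths and overlaps came from GENCODE 29. After filterByExpr and TMM scaling, 22230 genes were tested with edgeR 4.0.16 in R 4.3.3 (glmQLFit and glmQLFTest, two-sided, no covariate), Benjamini-Hochberg adjustment over all of them and a threshold of 0.05. The test was tried on simulated counts. CPM uses TMM-scaled libraries, log2 CPM a prior count of 2, and the SE is the log2 fold change over the square root of F.

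The labels do not tell whether replicates are separate cultures; p-values therefore cover only the spread among these libraries, which may be technical. Within groups, pairs of libraries gave chi-square values of 13.5 to 34.6 per degree of freedom, so none is a copy of another. No batch is named. The members and lists were chosen with earlier results of these data known. All 36 members are reported. In each other list the called gene with the largest change in each direction and a mean of at least 8 CPM was named, with the neighbours that share exons. Genes named outside this rule are marked. Alternatives were DESeq2 1.42.0, limma voom (limma 3.58.1), RLE, upper quartile and library total scaling, 2 other filters, a replicate block, summing genes with at least 50 shared exon bases, keeping unnamed loci, and leaving out each library.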

Additional observations from a re-analysis of the deposited data

How the results depend on the processing

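Over the 16 alternative settings the number of the 36 genes raised was 19 to 23 with all libraries and 16 to 23 with 1 left out, lowest without formononetin replicate 3. Of the 21 raised genes 16 were raised in every alternative, the others being CENPA, OIP5, CENPL, ZWINT and BUB3. Genes lowered numbered 2 under upper quartile scaling and 2 with a filter of 1 CPM in 3 libraries, where CENPF joined CENPO, and 0 to 1 with 1 library left out. Upper quartile scaling moved the mean log2 CPM difference to -0.18 for CENP-E and CENP-F and to 0.39 for the spindle checkpoint. Summing genes that share exons moved it to 0.66 for CENP-A and its deposition. With a library left out the mean difference over all 36 genes was 0.45 to 0.57. Under the other scalings, filters and sums it was 0.43 to 0.55.

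Some genes that were not called changed sign. PMF1 was at -0.0154 with limma voom, -0.0286 under upper quartile scaling and -0.0154 with the replicate block. MIS12 was at -0.0134 under upper quartile scaling and CENPC at 0.0165 with library totals. With 1 library left out PMF1 ran from -0.323 to 0.279, CENPC from -0.0802 to 0.0434 and CENPE from -0.102 to 0.00527. The cause was not tested. The deviations of libraries with the same replicate number from their group means correlated at -0.0021, 0.0092 and -0.022 across genes. Values this small show no large shared replicate effect over all genes, but they cannot tell whether the libraries were paired. With the replicate block 22 genes were raised and 1 lowered; OIP5 lost its call (0.48, adjusted p = 0.068), and NSL1 (0.39, adjusted p = 0.0385) and SKA1 (1.35, adjusted p = 0.0454) gained one. With 3 libraries a group, the spread limits the precision. The SE was largest for SKA1 (0.47), NSL1 (0.34), SKA3 (0.29), CENPH (0.28) and PMF1 (0.28). Not all of these were at a few CPM, as NSL1 ran from 13.6 to 38.5 CPM and PMF1 from 12.8 to 28.3 CPM.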
